A study of Homo sapiens with 8 samples.

Results

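Expression of the MAF transcription factor genes was examined in spheroids and monolayers of A549, a line from a human lung adenocarcinoma, with and without cytokines. The family comprised MAF, a large MAF gene, and the small MAF genes MAFF, MAFG and MAFK. All probe sets that the platform annotation gives to 1 of these symbols alone were taken. This yielded 10 of the 54613 probe sets tested, 6 for MAF, 2 for MAFF and 2 for MAFG, and thus 3 of the 4 genes, out of 19775 genes on the array. The annotation used here pairs no probe set with MAFK, which was not analysed here. The main probe set of each gene was chosen by its mean over the 8 arrays, which was 4.76 for MAF (209348_s_at), 11.82 for MAFF (36711_at) and 8.64 for MAFG (204970_s_at), against 3.72, 8.85 and 5.36 for the next probe set of each gene. That mean includes the treated 3D arrays, and the family was picked with its 3D response known, so the p-values given for its members describe them and support nothing further. Spheroid (3D) and monolayer (2D) cultures received 10 ng/ml TNF together with 2 ng/ml TGFβ (treated) or vehicle (control), given in 2 rounds that lasted 48 h each. This gave 4 groups, treated 3D, control 3D, treated 2D and control 2D, of 2 Affymetrix U133 plus 2.0 arrays each. All groups are the same cell line, and the labels tell them apart by culture format and cytokines. The methods describe the pairs of arrays as technical duplicates and the deposited design as biological replicates, so p-values measure the spread between these arrays, which may be technical. Values are log2 expression values made with GCRMA, and the array medians lay between 2.43 and 2.50, close to the lowest value of 2.23, so a probe set at this level was not above background.

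MAF proteins are basic leucine zipper transcription factors that bind MAF recognition elements, palindromes that extend the AP-1 site or the cAMP response element. The large MAF proteins, such as c-MAF, the product of MAF, carry an acidic activation domain and can dimerize with FOS and JUN. The small MAF proteins lack an activation domain. As homodimers they repress, whereas with a cap'n'collar (CNC) partner such as NRF2 they activate antioxidant genes, and with BACH1 or BACH2 they repress the same elements. MAF is best known from T cells, macrophages, the lens and multiple myeloma. A549 cells carry an inactivating mutation of KEAP1, the adaptor that marks NRF2 for degradation, and so hold much NRF2.

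The promoters of MAF and MAFF are shown because MAF had the largest 3D log2 fold-change of the 3 genes and MAFF was higher in 3D than in 2D with and without cytokines. They are RefSeq windows (GRCh38.p14), and the 250 bases before the start site are printed 5′ to 3′ on the strand of the gene, with matches to the NF-κB element (GGG, any 5 bases, CC) and to the MAF core site (TGCTGA) in capitals.
MAF, chr16:79600738-79600987, minus strand: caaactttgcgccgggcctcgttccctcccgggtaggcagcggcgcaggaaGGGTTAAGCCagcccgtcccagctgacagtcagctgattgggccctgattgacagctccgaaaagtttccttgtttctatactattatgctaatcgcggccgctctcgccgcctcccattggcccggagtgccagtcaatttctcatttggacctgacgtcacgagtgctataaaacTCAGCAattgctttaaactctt
MAFF, chr22:38202770-38203019, plus strand: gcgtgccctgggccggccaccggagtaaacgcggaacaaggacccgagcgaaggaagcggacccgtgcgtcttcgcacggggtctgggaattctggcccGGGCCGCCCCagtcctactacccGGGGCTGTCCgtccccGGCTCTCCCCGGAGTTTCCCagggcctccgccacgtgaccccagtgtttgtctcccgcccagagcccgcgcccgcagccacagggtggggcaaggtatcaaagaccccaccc
Windows reaching 50 bases past the start were searched on both strands for 5 motifs. The MAF window held 1 MAF core site, starting at position −22 from the start site and read on the opposite strand. This site occurred in 17.3% of all 35116 promoter windows. The MAF window also held 1 NF-κB match, at −199, and 2 antioxidant cores (TGANNNNGC), 1 of them beyond the start site. The MAFF window shown held NF-κB matches at 4 places, at −151 on both strands, at −128, and at the adjoining positions −112 and −102. A second RefSeq window of MAFF, upstream of the one shown, held 1 NF-κB match and 1 antioxidant core, and the MAFG window 1 of each. At least 1 NF-κB match stood in 58.7% and at least 1 antioxidant core in 41.8% of all windows. The share of windows with as many as 4 NF-κB places was not counted, and 70.4% of the MAFF bases shown are G or C. The AP-1 element (TGANTCA), present in 7.71% of windows, occurred in none of the 4 windows of these genes. The SMAD element (CAGAC), present in 45.3%, occurred once each in the MAFF window shown and in the MAFG window. These matches describe the letters of the windows and were not tested for binding.

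MAF was measured as expressed in treated 3D cultures and stood close to the array medians in the other groups. On its main probe set it had values of 10.65 and 10.22 in treated 3D cultures, against 2.83 and 3.48 in control 3D cultures. In 2D cultures the values were 2.83 and 2.70 in treated and 2.70 and 2.70 in control cells. Thus both treated 3D arrays lay far above the 6 others, which ran from 2.70 to 3.48. The log2 fold-change between treated and control 3D cultures was 7.27 (standard error 0.27, limma with Benjamini-Hochberg adjusted p = 0.00167), which is 155-fold on the scale of these values. In 2D cultures it was 0.06 (standard error 0.27, 95% interval −0.65 to 0.78, adjusted p = 1). The difference between both responses was 7.21 on the log2 scale (standard error 0.38, adjusted p = 0.00814). Because the comparison groups stood near the floor of the scale, with identical values on both 2D control arrays, the fold is not exact. On this probe set no group lay below its array medians, so no lower bound was taken. In bulk RNA, a higher level per cell and a larger share of expressing cells cannot be told apart. When the 4 3D arrays were fitted alone, the adjusted p of the 3D response was 0.0547.

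**Figure D1:**
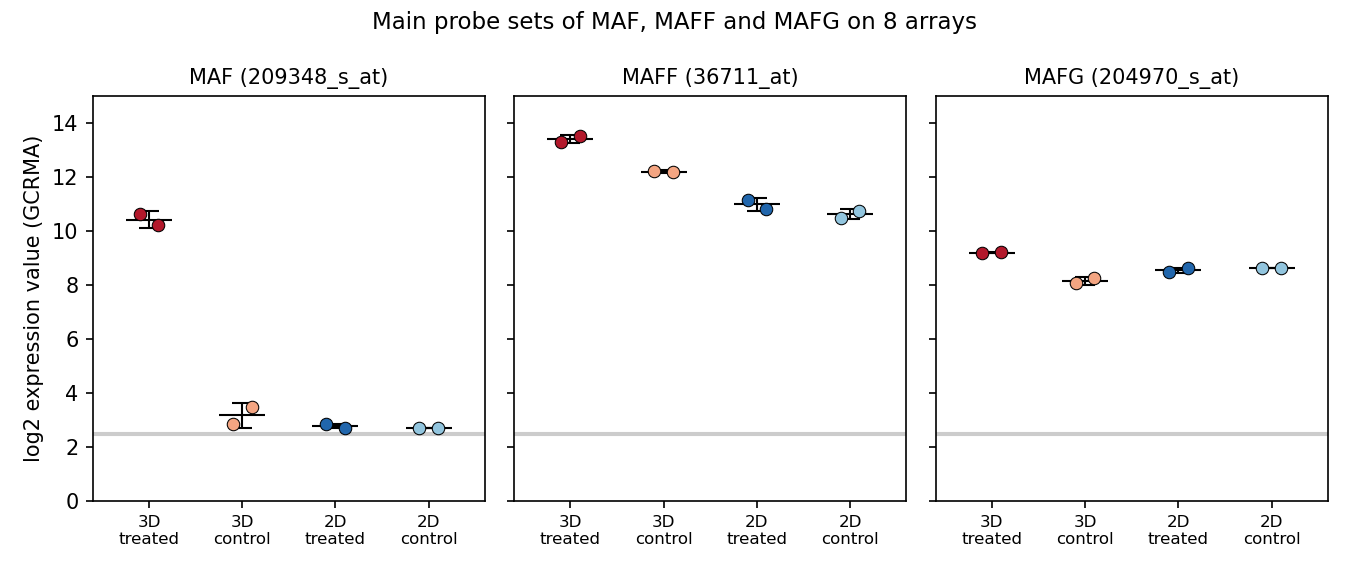
Log2 expression values (vertical axis) of the main probe sets of MAF, MAFF and MAFG in treated 3D, control 3D, treated 2D and control 2D cultures. Points are single arrays, bars are means ± SD (n = 2), and the grey band is the range of array medians, 2.43 to 2.50. MAF reaches 10.65 and 10.22 in treated 3D cultures and is at most 3.48 elsewhere.

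A further 3 of the 6 MAF probe sets showed the same pattern. The probe set 229327_s_at had values of 8.42 and 7.78 in treated 3D cultures and 2.41 and 2.23 in control 3D cultures, and was at 2.23 on all 4 2D arrays. For 206363_at the values were 7.65 and 6.51 in treated 3D cultures and 2.23 on the 6 other arrays. For 209347_s_at they were 3.59 and 3.56 in treated 3D cultures and 2.29 on both control 3D arrays. These 3 probe sets lay below the array medians on both arrays of every other group. Counted against those medians, MAF was at least 50.8-fold, 25.1-fold and 2.21-fold higher in treated than in control 3D cultures (adjusted p = 0.00195, 0.00721 and 9.43e-05). The remaining probe sets, 1566324_a_at and 1566323_at, were below the array medians on all 8 arrays. Of the 6 MAF probe sets, 4 were therefore called higher in 3D, and the same 4 had a response that differed from that in 2D (adjusted p = 0.000344 to 0.0377). Over all 10 probe sets of the family 8 were called higher in 3D, against 4.18% of all probe sets tested. These were 4 of MAF, 2 of MAFF and 2 of MAFG, and probe sets of the same gene are not separate members. The family was also picked with its 3D response known, so this count describes it and is not independent evidence.

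**Figure D2:**
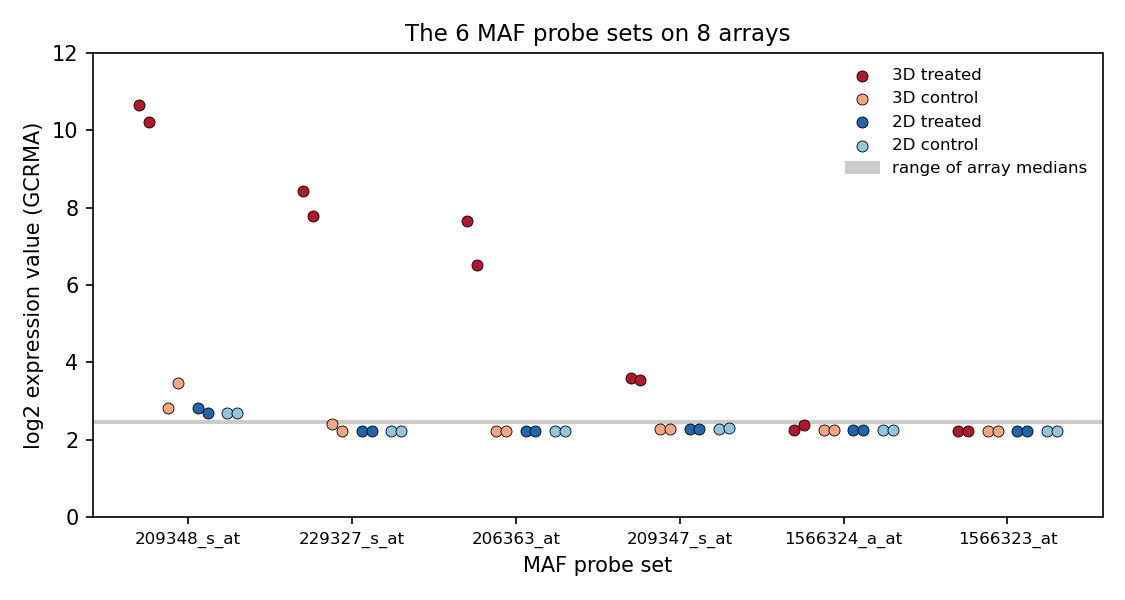
Log2 expression values (vertical axis) of the 6 MAF probe sets (horizontal axis, ordered by mean over the 8 arrays), with 1 point per array. The grey band is the range of array medians. In treated 3D cultures 4 probe sets rise above the band, from 3.56 to 10.65, and in control 3D and both 2D groups 3 of these 4 stay below their array medians.

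MAFF, a small MAF gene, was higher in treated than in control 3D cultures and higher in 3D than in 2D cultures. Its main probe set had values of 13.32 and 13.53 in treated 3D cultures and 12.25 and 12.18 in control 3D cultures. In 2D cultures the values were 11.16 and 10.83 in treated and 10.49 and 10.76 in control cells. All 4 3D arrays lay above all 4 2D arrays. In 2D the lower treated array (10.83) lay just above the higher control array (10.76), and the share of all genes separated in this way was not counted. The 3D response was 1.21 on the log2 scale (standard error 0.16, adjusted p = 0.0209), or 2.32-fold. In 2D the log2 fold-change was 0.37 (95% interval −0.07 to 0.81, adjusted p = 0.776), and the difference between both responses, 0.85, did not pass (95% interval 0.23 to 1.46, adjusted p = 0.182). Control 3D cultures were higher than control 2D cultures by 1.59 (standard error 0.16, adjusted p = 0.0191), and treated 3D cultures higher than treated 2D cultures by 2.43 (standard error 0.16, adjusted p = 0.00383). The second probe set, 205193_at, averaged 10.62 ± 0.27 in treated and 9.46 ± 0.07 in control 3D cultures, and 7.75 ± 0.13 in treated and 7.58 ± 0.00 in control 2D cultures (SD, n = 2 arrays). Its log2 fold-change in 3D was 1.16 (adjusted p = 0.0183), and its difference between both responses was 0.99 (adjusted p = 0.112). The 3D call of MAFF ended without treated replicate 2 (adjusted p = 0.0712), control replicate 1 (0.0853) or control replicate 2 (0.0959) of the 3D cultures, with replicate number as a block (0.0598), and with the 3D arrays alone (0.0802). Its call between control cultures ended with the block (0.0554), with the control arrays alone (0.0918), and without 3D control replicate 1 or 2 (adjusted p = 0.0664 and 0.0685).

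MAFG, the other small MAF gene, was higher in treated than in control 3D cultures, and its level in control 3D cultures was the lowest of the 4 groups. Its main probe set had values of 9.18 and 9.22 in treated 3D cultures and 8.06 and 8.26 in control 3D cultures. In 2D cultures they were 8.49 and 8.62 in treated and 8.65 and 8.63 in control cells. The 2D values lay between those of the 3D groups. The 3D response was 1.04 (standard error 0.08, adjusted p = 0.00706), or 2.06-fold, and the 2D log2 fold-change was −0.08 (95% interval −0.30 to 0.14, adjusted p = 1). The difference between both responses was 1.13 (standard error 0.12, adjusted p = 0.0323). Treated 3D cultures exceeded treated 2D cultures by 0.65 (adjusted p = 0.0127), whereas the log2 fold-change of control 3D over control 2D cultures was −0.48 (adjusted p = 0.0479). The second probe set, 224466_s_at, averaged 5.84 ± 0.30 in treated and 4.78 ± 0.05 in control 3D cultures (SD, n = 2 arrays), with a log2 fold-change of 1.06 (adjusted p = 0.0434). In 2D cultures the values of this probe set were 5.27 and 5.65 in treated and 5.36 and 5.35 in control cells. Here the higher treated 2D array (5.65) lay above the lower treated 3D array (5.62). On this probe set, the difference between both responses (0.95), the comparison of treated cultures (0.38) and that of control cultures (−0.57) did not pass (adjusted p = 0.202, 0.389 and 0.208). The difference between both responses also did not pass without any 1 of the 4 2D arrays (adjusted p = 0.051 to 0.0763). The comparison of treated cultures did not pass without 3D treated replicate 2 (adjusted p = 0.0555) or 2D treated replicate 1 (0.055). The control comparison did not pass without any 1 of the arrays other than 3D control replicate 2 (adjusted p = 0.086 to 0.16).

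**Figure D3:**
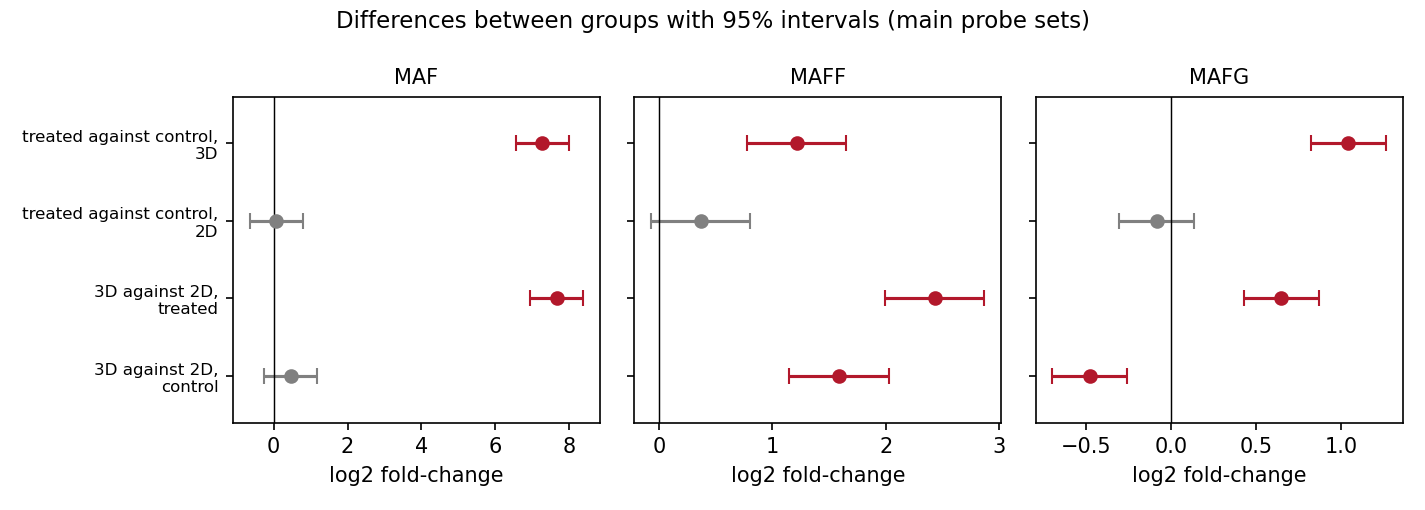
Log2 fold-changes (horizontal axes, a separate range for each gene) of MAF, MAFF and MAFG main probe sets between treated and control cultures in 3D and 2D, and between 3D and 2D cultures when treated and when control. Lines are 95% intervals from limma, red points passed an adjusted p under 0.05 and grey points did not. All 3 genes pass in 3D and none in 2D, and MAFG is higher in 3D when treated (0.65) and lower when control (−0.48).

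Among the 3 genes with a probe set, 3 rose in treated 3D cultures, where 5.53% of all genes were called higher. The paper had singled out MAF, MAFF and MAFG from these very arrays, so this count is not independent evidence of direction. In 2D cultures 0 of 3 passed, and 0.197% of all genes were called in either direction. At an unadjusted p under 0.05 the count in 2D was also 0, with unadjusted limma p-values of 0.821, 0.081 and 0.365 for MAF, MAFF and MAFG. The response differed between formats for MAF and MAFG, where 1.32% of all genes had a difference called in that direction. In treated cultures 3 of 3 genes were higher in 3D than in 2D, against 9.06% of all genes. In control cultures MAFF was higher in 3D and MAFG lower, while 5.77% of all genes were called higher and 4.9% lower. MAF was not called there, with a log2 fold-change of 0.46 (95% interval −0.26 to 1.17, adjusted p = 0.554). The mean levels of MAF and MAFF ran in the same order, treated 3D, control 3D, treated 2D and control 2D. For both genes the 2D groups did not pass the limma test, and control 3D against treated 2D cultures was not compared. For MAFG the order was treated 3D, control 2D, treated 2D and control 3D, and the 2D groups likewise did not pass. NRL, a large MAF gene of photoreceptors, averaged 2.87 in treated and 2.96 in control 3D cultures, and 2.87 in treated and 2.86 in control 2D cultures, and was called in no comparison.

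The dimer partners of the MAF proteins responded unevenly. Of 6 genes of the CNC and BACH group, 1 was called higher and 0 lower in treated 3D cultures, against 5.53% of all genes called higher and 10.8% lower. The median log2 fold-change of the group was 0.25, against 0 over all genes. The called gene was NFE2L3, which encodes the CNC factor NRF3 and was at 8.57 in treated and 5.97 in control 3D cultures (difference 2.59, adjusted p = 0.0177). In 2D cultures NFE2L3 was at 9.30 in treated and 7.47 in control cells, which did not pass (1.84, adjusted p = 0.21). Its responses in 3D and 2D differed by 0.75 (adjusted p = 0.667). For NFE2L2, which encodes NRF2, the 3D log2 fold-change was 0.22 (adjusted p = 0.365), and for NFE2L1, which encodes the related NRF1, it was 0.37 (adjusted p = 0.114). BACH1, the repressor partner, averaged 11.80 in treated and 11.53 in control 3D cultures, and 10.82 in treated and 10.28 in control 2D cultures. It did not pass for the cytokines in either format, but was higher in 3D than in 2D by 0.98 in treated and 1.25 in control cultures (adjusted p = 0.00879 and 0.0133). NFE2 and BACH2, both known from blood cells, were below the array medians on all 8 arrays. None of KEAP1, CUL3 and RBX1, which form the ligase of NRF2, passed in 3D, where KEAP1 differed by −0.87 (adjusted p = 0.0584). The call of NFE2L3 ended without 3D control replicate 2 (adjusted p = 0.067), without either 2D control array (0.0539) and with the 3D arrays alone (0.15).

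Of the AP-1 subunits, among them dimer partners of c-MAF, 3 of 7 genes were called higher and 0 lower in treated 3D cultures, against 5.53% and 10.8% of all genes. The list median was 1.47. The paper discusses AP-1 genes from these arrays, so this count is not independent evidence of direction. FOSL1, which encodes FRA-1, averaged 7.82 in treated and 4.70 in control 3D cultures (difference 3.12, adjusted p = 0.0117). JUN averaged 12.72 in treated and 9.75 in control 3D cultures (2.97, adjusted p = 0.00267). For JUNB the averages were 10.53 in treated and 8.73 in control 3D cultures (1.81, adjusted p = 0.00844). FOS was not called, with a difference of −0.30 (adjusted p = 0.769). The response of JUN differed between 3D and 2D by 2.38 (adjusted p = 0.0205), and in 2D cultures 0 of the 7 genes passed, against 0.197% of all genes. With the 3D arrays alone, 1 of 7 was called higher.

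Genes controlled by antioxidant elements, which dimers of CNC factors and small MAFs occupy, were lower where called in treated 3D cultures. Of 16 measured genes, 0 were called higher and 8 lower in treated 3D cultures, where 10.8% of all genes were called lower. The median log2 fold-change of the list was −0.53. NQO1, a quinone reductase, averaged 12.52 in treated and 14.34 in control 3D cultures (−1.82, adjusted p = 0.00486). ABCC2, an exporter of conjugates, averaged 7.53 in treated and 9.38 in control 3D cultures (−1.85, adjusted p = 0.0168). GCLC, an enzyme of glutathione synthesis, was lower (−1.13, adjusted p = 0.0241), as was AKR1B10, an aldo-keto reductase (−0.95, adjusted p = 0.00213). HMOX1, the haem oxygenase that BACH1 represses, did not pass (0.44, adjusted p = 0.189). In 2D cultures 0 of 16 passed, against 0.197% of all genes, and the response differed between formats for AKR1B10, SRXN1, a sulfiredoxin gene, and NQO1 (−1.31, adjusted p = 0.0468). In treated cultures 12 of 16 were lower and 0 higher in 3D than in 2D, against 14.5% of all genes called lower. In control cultures 5 were lower and 1, the biliverdin reductase gene BLVRB, was higher, against 4.9% of all genes called lower and 5.77% higher. The count called lower in treated 3D cultures was 3 without 3D control replicate 1, 3 without 3D control replicate 2, and 2 with the 3D arrays alone. GCLC also lost its call without any 1 of the 2D arrays (adjusted p = 0.0589 to 0.0623), and ABCC2 without treated 3D replicate 1 or 2 (0.0523 and 0.053).

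**Figure D4:**
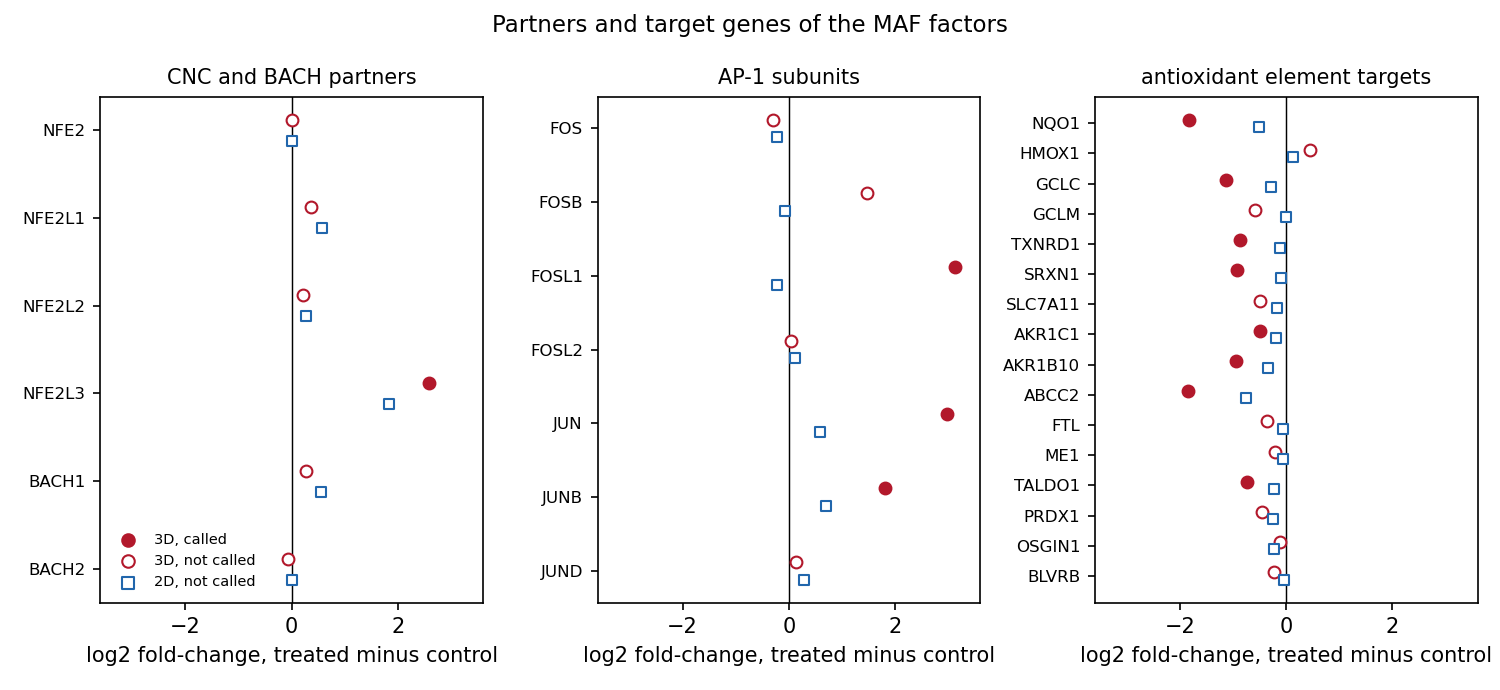
Log2 fold-changes of treated over control cultures (horizontal axes) for genes of the CNC and BACH partners, the AP-1 subunits and the antioxidant element targets, in 3D (red circles) and 2D (blue squares). Filled symbols passed an adjusted p under 0.05 in limma. In 3D, 8 of 16 antioxidant targets are called lower and 3 of 7 AP-1 subunits higher, and no gene shown passes in 2D.

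Genes reported elsewhere as targets of c-MAF in lymphocytes, myeloma and lens gave few calls. Of 11 measured, 2 were called higher and 1 lower in treated 3D cultures, against 5.53% of all genes called higher and 10.8% lower, so that the share called lower was near that of all genes. The list median was 0. NUAK1, a kinase related to AMPK, averaged 8.93 in treated and 6.96 in control 3D cultures (1.97, adjusted p = 0.0191). CRYAB, a small heat shock protein of the lens, averaged 6.04 in treated and 4.74 in control 3D cultures (1.30, adjusted p = 0.0266). DEPTOR, an inhibitor of mTOR, was lower, at 4.75 in treated and 8.80 in control 3D cultures (−4.06, adjusted p = 0.00272). Its responses in 3D and 2D differed by −3.27 (adjusted p = 0.0205). IL4, IL10, IL21, CRYAA, COL2A1, CCND2 and CCR1 were below the array medians on all 8 arrays. Both increases were lost without 3D control replicate 1, 3D control replicate 2 or either treated 2D array. The call of NUAK1 also ended without treated 3D replicate 1 or 2 (adjusted p = 0.0595 and 0.0556), and that of CRYAB without either 2D control array (0.0717). The call of DEPTOR held in all of these fits.

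The genes most similar to each member were taken by Pearson correlation over the 8 arrays, among 9507 genes with at least 1 group mean of 6 or more. For MAF they were MRGPRX3, a G protein-coupled receptor gene (r = 0.9992), MMP9, a matrix metalloproteinase gene (0.9985), and PDGFB, a platelet-derived growth factor gene (0.9973). MMP9 had values of 11.45 and 10.48 in treated and 2.75 and 2.95 in control 3D cultures, and 2.41 and 2.45 in treated and 2.53 and 2.26 in control 2D cultures. In all, 257 genes had an r over 0.95 with MAF, and these correlations rest on the contrast of both treated 3D arrays with the 6 others. For MAFF the genes were FA2H, a fatty acid hydroxylase gene (r = 0.9965), JMJD6, which encodes a JmjC domain protein (0.9954), and KCMF1, which encodes a ubiquitin ligase (0.9947), and 340 genes had an r over 0.95. For MAFG they were ITPRIP (r = 0.9922), the keratin gene KRT80 (0.9915) and CAPRIN2 (0.9857), and 25 genes had an r over 0.95. ITPRIP had values of 10.11 and 10.17 in treated and 8.33 and 8.44 in control 3D cultures, and 8.92 and 9.03 in treated and 9.21 and 9.27 in control 2D cultures. Like MAFG, it was lowest in control 3D cultures. These correlations share the same 8 arrays and are descriptions.

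Most of the listed T cell, macrophage and monocyte, endothelial and fibroblast markers were at or near the floor. No marker list of lens or myeloma cells was examined. The 5 T cell markers (PTPRC, CD2, CD3D, CD3E and CD3G) lay below the array medians on all 8 arrays, with a summed log2 level of 4.56 on both treated 3D arrays and at most 4.57 on any array. Of 5 macrophage and monocyte markers, PTPRC, CD163 and CSF1R were below the medians on all 8 arrays. The other 2 were not below the medians on any array. CD14 was lower in treated than in control 3D cultures (5.66 and 8.52, adjusted p = 0.0477), LYZ averaged 5.81 in treated and 8.58 in control 3D cultures (adjusted p = 0.138), and the summed level of the list was 6.89 to 7.08 in treated and 9.54 to 9.62 in control 3D cultures. The endothelial markers CDH5 and VWF and the fibroblast markers PDGFRB and DCN, 2 of 3 in each list, were below the medians on all 8 arrays. The third endothelial marker, PECAM1, had group means of 4.30 to 4.51. The third fibroblast marker, LUM, was at 4.52 and 2.77 in treated and 2.66 and 2.25 in control 3D cultures (1.19, adjusted p = 0.442), and the summed fibroblast level was 4.03 to 5.05 in treated and 3.83 to 3.98 in control 3D cultures. The 5 epithelial markers had a summed level of 14.68 to 14.83 in treated and 15.44 to 15.53 in control 3D cultures. In 3D, 4 were called lower, against 10.8% of all genes, among them KRT8 (−1.05, adjusted p = 0.0361) and EPCAM (−2.20, adjusted p = 0.0402). For 2D cultures 0 of 5 passed, against 0.197% of all genes, and 0 had a difference called between both responses. The part of these marker shifts in the MAF responses was not tested.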

How the data were processed

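Labelled RNA of the A549 cultures was read on U133 plus 2.0 arrays of Affymetrix. The log2 values are as deposited: the authors background-corrected, normalized and summarized them per probe set with GCRMA, whose version is not given in the sources used here. The submitters' processing notes name limma 3.6.9. Of 54675 probe sets, 62 array controls were removed. The platform annotation names 1 gene for 41091 of the others, several for 1801 and none for 11721. All 8 arrays entered 1 limma fit of 4 group means (limma 3.58.1 under R 4.3.3, lmFit then eBayes, 4 residual and 0.347 prior degrees of freedom), and p-values were adjusted by Benjamini-Hochberg across every probe set tested, with calls at 0.05. All adjusted p-values are from limma. Simulated arrays with known changes were used to test the code. Precision is limited by having 2 arrays in each group.

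A group is near background when both arrays lie below their array median, and a fold against it is a lower bound taken at those medians. Named genes are all probe sets of the MAF genes, up to 4 genes per list with the largest called 3D changes, those members of lists of up to 7 genes that the text needs, and the 3 genes most correlated with each member. HMOX1, SRXN1, BLVRB, the c-MAF targets named as below the array medians and the neighbouring genes fall outside this rule. They were chosen after their values were seen. Members and lists were chosen with earlier results of these data known. MAFK, MAFA, FTH1 and CD68 were not analysed here, since the platform table gives no probe set to them alone. The alternatives were replicate number as a block, an eBayes trend, quantile normalization, median-centred arrays, removal of dim probe sets, ordinary t statistics, a fit of the compared arrays alone, adjustment over 1 probe set per gene, the probe set with the largest 3D change, a log2 fold-change of at least 1, a background limit of 3, and leaving out each array. Promoters are RefSeq windows (GRCh38.p14). Plots were drawn with matplotlib 3.10.9.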

Additional observations from a re-analysis of the deposited data

Results flagged for a closer look

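By the interaction term of limma, the response to TNF and TGFβ differed between 3D and 2D cultures on the main probe sets of MAF and MAFG. On main probe sets, 1.32% of all genes had a difference called in that direction. Of the 10 probe sets, 5 were flagged, of which 4 measure MAF and 1 measures MAFG. Probe sets of 1 gene are not separate members. The share over all probe sets was not computed, so this count has no background beside it. For MAF the 3D minus 2D differences were 7.21 on 209348_s_at, 5.78 on 229327_s_at, 4.85 on 206363_at and 1.29 on 209347_s_at (adjusted p = 0.00814, 0.00893, 0.0377 and 0.000344). On each of them both treated 3D arrays lay above the other 6. For MAFG the difference was 1.13 on 204970_s_at (adjusted p = 0.0323), with both treated 3D arrays above both control 3D arrays. On 224466_s_at, the second probe set of MAFG, the difference was 0.95 and did not pass (adjusted p = 0.202). The 2D log2 fold-change was −0.08 on 204970_s_at and 0.11 on 224466_s_at, and neither passed. Groups of 2 arrays were too small to look for outlying arrays.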

How the results depend on the processing

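No log2 fold-change of MAF, MAFF or MAFG that was called changed sign under any alternative. When only the compared arrays were fitted, 0 of 3 genes were called in 3D instead of 3, 1 instead of 3 between treated 3D and 2D cultures, and 0 instead of 2 between control cultures. The difference of the responses was called for 2 genes, and for 1 with the replicate block, with ordinary t statistics or on the probe set with the largest 3D change. The control comparison, also called for 2 genes, gave 0 with the replicate block and 1 under quantile normalization, ordinary t statistics, the probe set with the largest 3D change or a log2 fold-change of at least 1. Leaving out 1 array at a time gave 1 to 2 genes for the difference of the responses and 0 to 1 for the control comparison. In 2D 0 genes were called in all settings. Whether same-numbered arrays are paired is not given in the labels. Their deviations over 28188 brighter probe sets had correlations of −0.015 to 0.283, the highest between treated and control 2D arrays. Among all genes, 3235 were called in 3D, and 2100 with the replicate block, 1743 and 1719 without 3D control replicate 1 or 2, and 529 to 4958 over all alternatives. The lowest count came from the 3D arrays alone and the highest after removal of dim probe sets. The same settings gave 254 and 3969 against 2110 for control cultures and 338 and 6260 against 4667 for treated cultures. In 2D the count of 39 ran from 6 with the 2D arrays alone to 472 without 2D treated replicate 2. For the difference of the responses it was 645, with 226 under the replicate block and 2262 without 3D treated replicate 1. Against the array medians, the main probe set of MAF was near background in no group. With a background limit of 3, MAF was near background in both 2D groups but not in control 3D cultures. The alternatives for lists and their genes were chosen after seeing the data. The cause of these changes was not tested.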

Other observations

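The protein-coding genes next to each member in the RefSeq order were looked up after the values had been seen. WWOX, a tumour suppressor gene next to MAF, averaged 7.95 in treated and 8.43 in control 3D cultures (−0.48, adjusted p = 0.0238). DYNLRB2, on the other side of MAF, stood at 2.23 in all 4 groups. CDYL2, the next gene beyond it, averaged 4.09 in treated and 2.25 in control 3D cultures and did not pass (1.84, adjusted p = 0.13). Beside MAFF, neither PLA2G6 (−0.25, adjusted p = 0.8) nor TMEM184B (0.23, adjusted p = 0.27) passed in 3D. CSNK1E, a casein kinase gene beyond TMEM184B, averaged 7.67 in treated and 6.34 in control 3D cultures (1.33, adjusted p = 0.0247). Beside MAFG, neither SIRT7 (0.04, adjusted p = 1) nor PYCR1 (−0.14, adjusted p = 0.854) passed. The remaining second neighbours did not pass in 3D either. They were CLEC3A near MAF, BAIAP2L2 near MAFF (−0.40, adjusted p = 0.367), and NPB (−0.03, adjusted p = 0.536) and MYADML2 near MAFG. Of all genes, 5.53% were called higher and 10.8% lower in treated 3D cultures.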
